A study of Mus musculus with 12 samples.

Results

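CEACAM1, a cell adhesion receptor, and 8 genes tied to its cytoplasmic tail were followed as RNA in mouse colon cancer cells that differ in which CEACAM1 isoform they express. The set comprised Ceacam1 itself, its paralog Ceacam2, the phosphatase genes Ptpn6 and Ptpn11, the kinase gene Src, and Ctnnb1, Flna, Shc1 and Irs1. Those after Ceacam2 were included as genes of binders or effectors of the tail. The set holds 9 of the 19057 genes named by the array's platform annotation. Every probe annotated with 1 of its symbols was taken, 26 of 45281 in all. The 12 samples were total RNA of MC38 cells, a metastatic murine colon cancer line syngeneic to C57BL/6 mice, each hybridised to 1 Illumina bead array. In the order used below the groups are cells expressing the long isoform (CEACAM1-L), cells expressing the short isoform (CEACAM1-S) and control cells labelled as lacking CEACAM1, with 4 arrays each. All 3 groups were kept in culture for 72 h with 10% serum and selection antibiotics in the medium. The labels do not say how the lines were made, whether each is 1 clone, or whether the 4 arrays of a group are separate cultures, so every p-value reflects the variation among these arrays alone, part or all of which may be technical.

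CEACAM1 is made in isoforms that share their outer domains and differ in the tail. The long tail carries immunoreceptor tyrosine-based inhibitory motifs: Src-family kinases phosphorylate their tyrosines, and the phosphatases SHP-1 and SHP-2 then dock there through their SH2 domains and dampen signals from neighbouring receptors. The short tail lacks these motifs and is known for binding calmodulin, actin and tropomyosin. In colon epithelium CEACAM1 sits at cell contacts and is often lost early in tumour development.

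Values are normalized log2 signals, and a probe counted as detected on an array when its detection p-value, its place among that array's negative control beads, was under 0.05. Between 14717 and 16071 probes were detected per array. Of the 26 probes of these genes, 17 were detected on at least 4 of the 12 arrays and were tested, while 9 fell below that filter. Each gene was represented by its brightest such probe, which left 8 of the 9 genes testable and excluded Ceacam2. Of the 15 epithelial markers, all of which had a probe, 4 were tested. By their brightest probe 7 were detected on some array, Krt8 on 12, Lgals4 on 11, Cldn7 on 9, Cdh1 on 6 and the others on 3 or fewer, and 8 on none, among them Epcam, Krt18 and Krt19. Krt8 averaged 5.87 in CEACAM1-L, 5.28 in CEACAM1-S and 6.31 in control, and it was the 1 epithelial marker that passed: it was lower in CEACAM1-S than in control, at -1.03 (limma adjusted p = 0.00015), and differed by 0.59 between the lines (limma adjusted p = 0.0173). Each array's mean log2 signal over these markers was 4.61 to 4.67 in CEACAM1-L, 4.50 to 4.60 in CEACAM1-S and 4.61 to 4.68 in control. Over the 9 fibroblast markers these means were 5.63 to 5.95 in CEACAM1-L, 5.77 to 5.97 in CEACAM1-S and 5.08 to 5.26 in control. The part of the fibroblast markers in the results below was not tested. Signals of bulk RNA do not tell fewer expressing cells from less RNA per cell.

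Across the set, CEACAM1-S cells differed from control in 4 of the 8 tested genes (Ceacam1, Ptpn6 and Ctnnb1 higher, Src lower), where 23.6% of all 9100 tested genes differed (12.2% higher, 11.4% lower). CEACAM1-L cells differed from control in 2 of 8 (Ceacam1 higher, Src lower), beside 36.2% of all genes (18.2% higher, 18.0% lower). Between the isoform lines 3 of 8 differed, with CEACAM1-L below CEACAM1-S in Ceacam1, Ptpn6 and Ctnnb1, beside 26.2% of all genes (13.2% higher, 12.9% lower). The median log2 difference of the 8 genes was 0.06 for CEACAM1-S minus control, 0.07 for CEACAM1-L minus control and -0.12 for CEACAM1-L minus CEACAM1-S, and over all tested genes it was -0.01, -0.01 and -0.02. A gene counted as different when its Benjamini-Hochberg adjusted p from limma, taken over all tested genes, was under 0.05. Counted by probe, 6 of the 17 passed in CEACAM1-S minus control, 5 in CEACAM1-L minus control and 5 between the lines, beside 19.1%, 31.8% and 22.0% of all 16330 kept probes. Ceacam1, by which the groups differ by label, is in every count, with all 3 of its tested probes in each count by probe. The counts are thus not of the tail partners alone, and no excess over the shares is read from them. Both isoform lines were set against the same 4 control arrays, so their differences from control are not independent of each other.

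**Figure D1:**
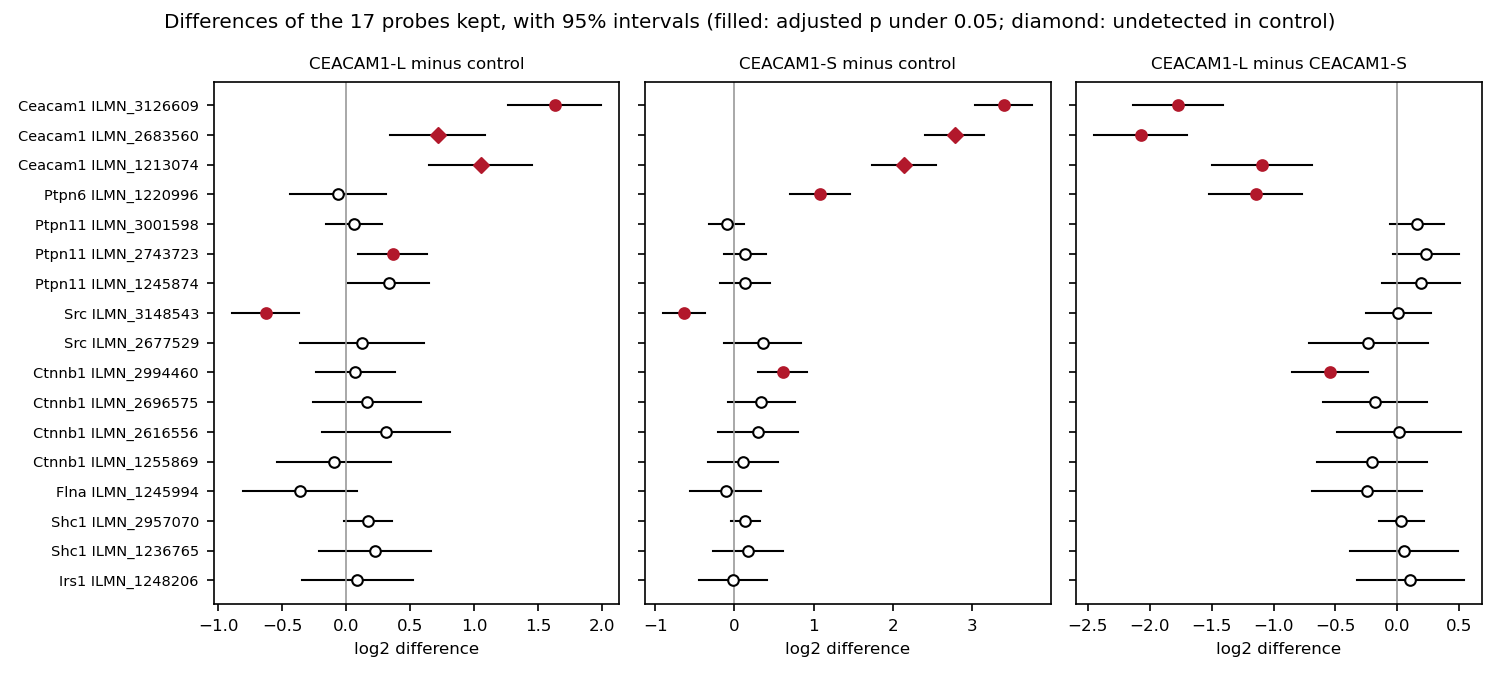
Log2 difference (x axis, with 95% intervals) of each of the 17 tested probes, with CEACAM1-L minus control, CEACAM1-S minus control and CEACAM1-L minus CEACAM1-S in separate panels that have their own axes. Filled points have an adjusted p under 0.05 over all 16330 kept probes: the 3 Ceacam1 probes stand far to the right of 0 in CEACAM1-S minus control. Diamonds mark the 2 of these that were undetected in control, whose position depends on the background there and for which the text gives lower bounds, while the third lies at 3.40.

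The promoters of the pair of CEACAM genes and of Ptpn6 are shown because Ceacam1 and Ptpn6 had the largest differences of the set, with Ceacam2 for comparison with its paralog. Each line gives the 250 bases before the annotated gene start on the gene's own (minus) strand, from RefSeq for GRCm38.p6: chr7:25477626-25477875 for Ceacam1, chr7:25540005-25540254 for Ceacam2 and chr6:124738710-124738959 for Ptpn6. Capitals mark CACGTG, the E-box read by USF factors, and GGGCGG, the GC box read by SP factors, which is CCGCCC where it lies on the other strand.
Ceacam1: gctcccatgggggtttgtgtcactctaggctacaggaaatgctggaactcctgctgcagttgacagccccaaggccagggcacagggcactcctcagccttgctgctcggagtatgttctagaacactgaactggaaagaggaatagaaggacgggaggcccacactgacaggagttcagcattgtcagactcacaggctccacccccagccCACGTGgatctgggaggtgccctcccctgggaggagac
Ceacam2: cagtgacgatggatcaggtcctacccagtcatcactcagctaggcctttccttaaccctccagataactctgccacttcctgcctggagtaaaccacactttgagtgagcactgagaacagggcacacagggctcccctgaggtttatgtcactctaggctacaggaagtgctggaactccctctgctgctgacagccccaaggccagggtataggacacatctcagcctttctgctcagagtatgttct
Ptpn6: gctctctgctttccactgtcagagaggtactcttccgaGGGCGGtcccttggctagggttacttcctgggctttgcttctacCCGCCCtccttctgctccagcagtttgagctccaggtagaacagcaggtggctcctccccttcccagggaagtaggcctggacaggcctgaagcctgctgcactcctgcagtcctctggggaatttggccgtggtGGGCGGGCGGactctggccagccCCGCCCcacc
The Ceacam1 window holds 1 CACGTG match, 38 bases before the start, and no GC box. The Ceacam2 window holds neither. The Ptpn6 window holds 5 GC box matches over both strands, of which a pair overlap. Over all 32851 promoter windows of this length, 6.02% hold CACGTG and 32.7% hold GGGCGG on either strand. A local alignment placed bases 250 to 131 before the Ceacam1 start against bases 119 to 1 before the Ceacam2 start, with 104 of 120 columns identical (86.7%). The part of the Ceacam1 window that holds its CACGTG match, at 38, thus has no aligned part in the Ceacam2 window. The windows therefore do not show whether Ceacam2 has a counterpart of that match. These matches describe letters and not binding.

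Ceacam1, whose expression distinguishes the 3 groups by label, was measured by 4 probes. Its brightest probe read 6.70, 6.41, 6.50 and 6.58 in CEACAM1-L replicates 1 to 4, against 8.58, 7.81, 8.24 and 8.68 in CEACAM1-S and 4.87, 4.99, 4.88 and 4.96 in control cells. The 3 groups did not overlap, CEACAM1-S standing highest and control lowest. The control arrays lay near the background, with detection p-values of 0.031, 0.016, 0.0363 and 0.0395, while every array of both isoform lines had a detection p-value of 0. In raw units the signals were 141 to 185 in CEACAM1-L, 261 to 589 in CEACAM1-S and 93.9 to 115 in control cells.

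In limma's test Ceacam1 was higher in CEACAM1-S than in control by 3.40 ± 0.17 (SE) on the log2 scale, a 10.6-fold difference (95% interval 3.04 to 3.76, adjusted p = 4.02e-13). CEACAM1-L exceeded control by 1.63 ± 0.17, or 3.09-fold (1.27 to 1.98, adjusted p = 7.4e-08). CEACAM1-L was 3.42-fold below CEACAM1-S, with a log2 difference of -1.78 ± 0.17 (-2.13 to -1.42, adjusted p = 5.18e-08). The order of the groups held without background correction, but the size depended on it: the log2 differences were then 1.91 for CEACAM1-S minus control, 0.68 for CEACAM1-L minus control and -1.23 between the isoform lines. In the authors' own processed values they were 1.60, 0.54 and -1.06.

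The further Ceacam1 probes gave the same order where they were detected. Probe ILMN_2683560 read 5.21, 4.95, 5.64 and 4.98 in CEACAM1-L, 7.30, 7.23, 7.50 and 7.05 in CEACAM1-S and 4.51, 4.55, 4.53 and 4.34 in control, where it was detected on no array. Its signal exceeded control at least 5.54-fold in CEACAM1-S and 1.32-fold in CEACAM1-L (limma adjusted p = 2.7e-11 and 0.00355 over all probes). A bound of this kind sets the brighter group against the lowest signal counted as detected on the control arrays. Probe ILMN_1213074, also undetected in control, exceeded control at least 3.31-fold in CEACAM1-S and 1.55-fold in CEACAM1-L (limma adjusted p = 1.23e-08 and 0.000173). The last, ILMN_2580947, was detected on none of the 12 arrays. The sources used here do not place the probes in exons or UTR, so the values do not separate long from short transcripts or introduced from endogenous ones.

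**Figure D2:**
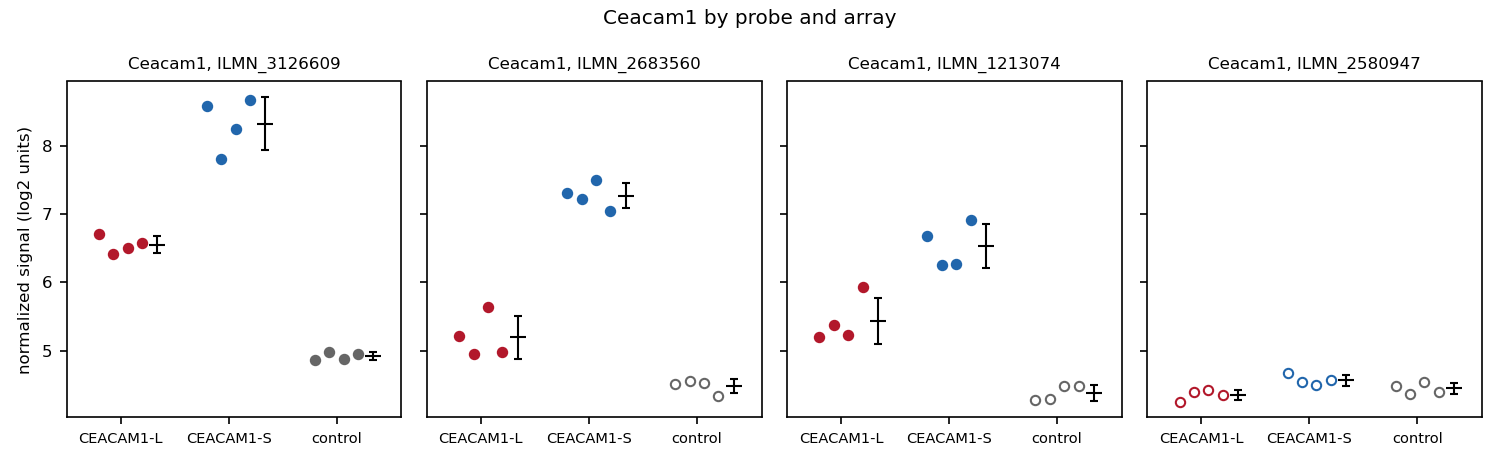
Normalized log2 signal (y axis) of the 4 Ceacam1 probes, a panel each, in CEACAM1-L, CEACAM1-S and control arrays; open circles are arrays on which the probe was not detected, and bars are the mean and SD of 4 arrays. In the panels of the 3 probes that were kept, CEACAM1-S lies above CEACAM1-L, which lies above control, and the remaining probe is flat between 4.25 and 4.68.

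Ceacam2, a paralog on the same chromosome, 7, whose product, like CEACAM1, can serve as a receptor for murine coronavirus, stayed near the floor. Probe ILMN_2597854 was detected on 2 CEACAM1-L arrays and on no CEACAM1-S or control array, with mean log2 signals of 4.84 ± 0.42, 4.55 ± 0.16 and 4.63 ± 0.10 (SD, n = 4 each) in that order. Probe ILMN_1239472 was detected on 1 CEACAM1-S array alone. No test was made on either, and how far a Ceacam1 probe also binds RNA of this close relative was not tested. Of 26 CEA family genes on the list, 25 had a probe and 3 were tested. Besides Ceacam1, 1 passed against control. This was Psg23, a pregnancy-specific glycoprotein gene. Its log2 difference was -0.44 ± 0.15 in CEACAM1-S minus control (limma adjusted p = 0.0346) and 0.01 in CEACAM1-L minus control. The CEACAM1-S call was lost when any of 4 control or 2 CEACAM1-S arrays was left out. The differences were then between -0.47 and -0.40. All 3 passed between the lines. The difference of CEACAM1-L minus CEACAM1-S was 0.45 ± 0.15 for Psg23 (limma adjusted p = 0.0285), a call lost without CEACAM1-S replicate 3 or 4 or CEACAM1-L replicate 2, and -0.48 ± 0.17 for Psg19, of the same kind (limma adjusted p = 0.0365). Psg19 was named after its values had been seen and was not recomputed under the alternatives.

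Ptpn6 encodes SHP-1, the phosphatase that docks on the phosphorylated long tail and is best known from blood cells. It read 5.45, 5.87, 5.61 and 6.02 in CEACAM1-L, 6.62, 6.85, 7.002 and 7.06 in CEACAM1-S and 5.66, 5.91, 6.12 and 5.53 in control cells. All CEACAM1-S arrays lay above all others, and CEACAM1-L and control overlapped. Ptpn6 was thus 2.11-fold higher in CEACAM1-S than in control (log2 difference 1.08 ± 0.18, 0.71 to 1.45, limma adjusted p = 6.59e-05). CEACAM1-L differed from CEACAM1-S by -1.14 ± 0.18 (limma adjusted p = 3.52e-05) and from control by -0.07 ± 0.18, an interval of -0.43 to 0.30 (adjusted p = 0.819). Without background correction the Ptpn6 difference between CEACAM1-S and control shrank to 0.56, and in the authors' values to 0.44, past the threshold in both.

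The other Ptpn6 probe, ILMN_3113420, read 4.36, 4.38, 4.71 and 4.36 in CEACAM1-L, 4.66, 4.997, 5.41 and 4.77 in CEACAM1-S and 4.47, 4.37, 4.44 and 4.62 in control. It was detected on 2 of 4 CEACAM1-S arrays and on no other, and so was not tested. Of 17 blood and immune cell markers, 14 had a probe, and none was detected on all arrays of any group. Each array's mean log2 signal over these 14 was 4.46 to 4.51 in CEACAM1-L, 4.43 to 4.50 in CEACAM1-S and 4.44 to 4.49 in control. The median over all probes of an array was 4.46. By their brightest probe 11 of the 14 were detected on no array, among them the defining markers Ptprc (CD45), Cd3e and Itgam. The other 3 were detected on some arrays, Csf1r on 7, Coro1a on 6 and Fcer1g on 3. Fcer1g averaged 4.66 in CEACAM1-L, 4.86 in CEACAM1-S and 4.38 in control, with detection on 1, 2 and 0 arrays in that order, and was not tested. Csf1r averaged 4.75, 4.91 and 4.97 and Coro1a 4.87, 4.58 and 4.76 in the same order, and neither passed in any comparison. Their part in the Ptpn6 result was not tested. None of the 3 nearest tested genes on either side of Ptpn6 on chromosome 6 passed in CEACAM1-S minus control. Their log2 differences there lay between -0.17 and 0.20. In CEACAM1-L minus control, Eno2 among them was higher by 1.22 (limma adjusted p = 1.04e-07) and Lpcat3 lower, at -0.26 (adjusted p = 0.0438). Eno2 also differed by 1.35 in CEACAM1-L minus CEACAM1-S (limma adjusted p = 6.01e-08).

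Ptpn11, the gene of SHP-2, which also docks on the long tail and carries growth factor signals to Ras, was measured by 4 probes, of which 3 were kept. Its brightest probe read 11.45, 11.85, 11.65 and 11.51 in CEACAM1-L, 11.60, 11.45, 11.28 and 11.50 in CEACAM1-S and 11.77, 11.67, 11.40 and 11.39 in control. The groups overlapped fully, and the log2 differences from control were -0.10 (-0.31 to 0.12) in CEACAM1-S and 0.06 (-0.16 to 0.28) in CEACAM1-L, with limma adjusted p of 0.562 and 0.705. A second probe, ILMN_2743723, read 9.05, 8.96, 9.18 and 9.05 in CEACAM1-L, 9.04, 8.53, 9.02 and 8.73 in CEACAM1-S and 8.34, 8.79, 8.87 and 8.79 in control. There all CEACAM1-L arrays lay above control, by 0.36 (0.09 to 0.63, limma adjusted p = 0.0356 over all probes, of which 31.8% passed). The remaining kept probe, ILMN_1245874, differed by 0.33 (0.02 to 0.64) in CEACAM1-L minus control (limma adjusted p = 0.103), and the fourth was detected on 1 array. All 3 kept probes of Ptpn11 thus read higher in CEACAM1-L than in control, 1 of them past the threshold, and their intervals overlapped. Averaged over these probes, Ptpn11 passed in CEACAM1-L minus control (0.25, limma adjusted p = 0.0299). Ptpn11 lies on chromosome 5, where 264 of 625 tested genes (42.2%) were higher in CEACAM1-L than in control and the median log2 difference was 0.26, against -0.02 for all other genes. The part of that shift in the Ptpn11 values was not tested.

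Src, the founding member of the kinase family that phosphorylates the tail tyrosines, was lower in both isoform lines. It read 8.11, 8.43, 8.003 and 8.36 in CEACAM1-L, 8.39, 7.94, 8.19 and 8.36 in CEACAM1-S and 8.77, 8.79, 8.94 and 8.93 in control cells. All 8 arrays of the isoform lines lay below all control arrays, and the 2 lines overlapped each other. Src was 1.56-fold lower in CEACAM1-S (log2 difference -0.64 ± 0.13, limma adjusted p = 0.000506) and 1.55-fold lower in CEACAM1-L (-0.63 ± 0.13, limma adjusted p = 0.000334). Between the lines the difference was 0.01, with an interval of -0.25 to 0.27. Both calls ended when arrays were scaled to a common median in place of quantile normalization (-0.67, adjusted p = 0.495, and -0.77, adjusted p = 0.193).

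Src had a dim second probe, ILMN_2677529, detected on 2 CEACAM1-L, 2 CEACAM1-S and 1 control array, whose log2 differences from control were 0.36 (-0.13 to 0.84) in CEACAM1-S and 0.12 (-0.36 to 0.60) in CEACAM1-L, neither past the threshold. Averaged with it, Src no longer passed (-0.14 in CEACAM1-S and -0.25 in CEACAM1-L). The third, ILMN_2638454, was detected on 1 array. In RefSeq gene order for GRCm38.p6 the tested genes next to Src on chromosome 2 also fell in both lines. Manbal differed by -0.58 in CEACAM1-L and -0.35 in CEACAM1-S (limma adjusted p = 4.23e-05 and 0.00974), and Blcap by -0.60 and -0.74 (adjusted p = 0.000134 and 2.05e-05). The next gene outwards on either side did not fall: Rpn2 differed by 0.02 and 0.29 and Ctnnbl1 by -0.03 and -0.06 in the same order. Of these, Rpn2 passed as higher in CEACAM1-S (limma adjusted p = 0.018). On chromosome 2 as a whole, 161 of 731 tested genes were higher and 123 (16.8%) lower in CEACAM1-L, and 56 were higher and 82 (11.2%) lower in CEACAM1-S, where 18.0% and 11.4% of all tested genes were lower. Looking at neighbours was decided after the values of the members had been seen.

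**Figure D3:**
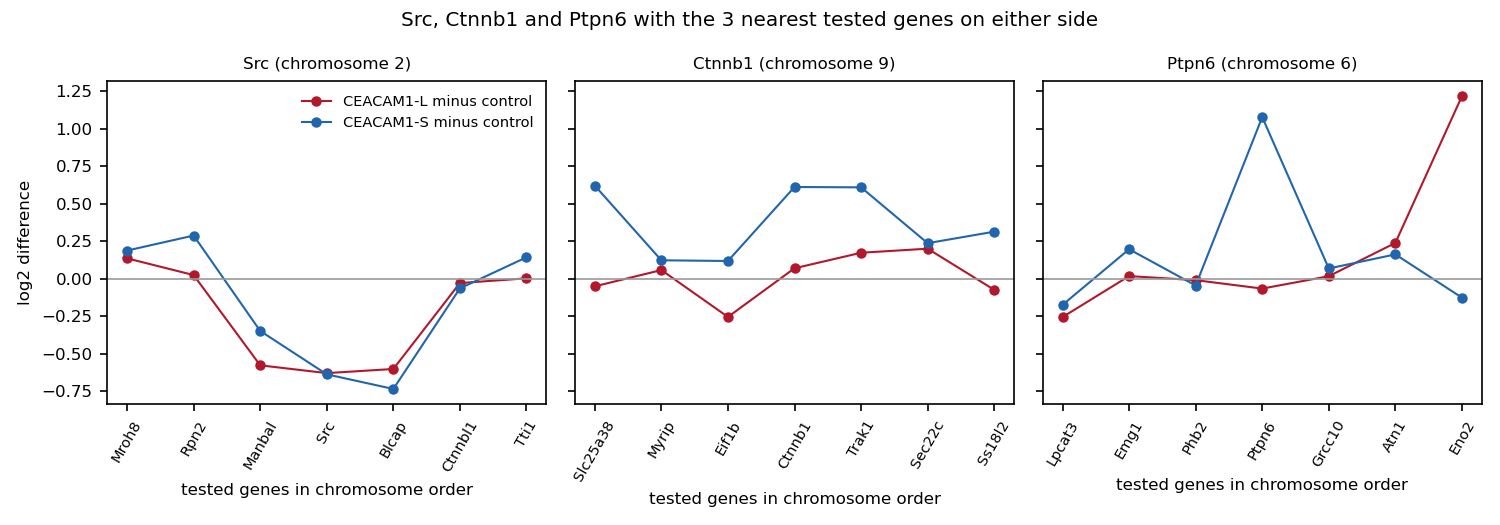
Log2 differences from control (y axis) of Src, Ctnnb1 and Ptpn6, a panel each, with the 3 nearest tested genes on either side in RefSeq gene order (x axis, ordered and not to scale), lines marking the comparison. Src, Manbal and Blcap lie below 0 in both comparisons, between -0.74 and -0.35, and Ptpn6 stands alone above its neighbours in CEACAM1-S.

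Genes of the same pathways were taken from lists drawn up with earlier results known, and up to 3 of each list are named by a rule of size. Of the 57 calls for these named genes over the 3 comparisons, 42 were lost under scaling to a common median and 1 was lost in the authors' processed values. In 41 of those 42 the difference stayed within 1.5 times its size, while the median SE was 0.34 with that scaling, against 0.14 with quantile normalization. Signed values beside these genes are log2 differences from control with the SE of the fit. Counts within a list stand beside the shares over all 9100 tested genes. In CEACAM1-L 18.2% were higher and 18.0% lower than control, and in CEACAM1-S 12.2% were higher and 11.4% lower. Whether any list departs from these shares was not tested. Among Src-family kinases and their regulators, 6 of 15 were tested, Src included. In CEACAM1-S 1 was higher and 1 lower than control, and in CEACAM1-L 1 was lower. The gene that was higher was Csk, the kinase that shuts off Src-family kinases by phosphorylating their terminal tyrosine. Csk was higher in CEACAM1-S by 0.70 ± 0.11 (limma adjusted p = 2.65e-05), with all 4 arrays above control, and differed by 0.05 ± 0.11 in CEACAM1-L. Its difference between the lines, CEACAM1-L minus CEACAM1-S, was -0.66 ± 0.11 (limma adjusted p = 6.94e-05). Csk lies on chromosome 9, as Ctnnb1 does, and the shift of that chromosome is given below.

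Ctnnb1 encodes beta-catenin, which links cadherins to actin, carries Wnt signals to the nucleus and binds the long tail. It read 9.50, 9.62, 9.06 and 9.32 in CEACAM1-L, 9.69, 10.29, 9.95 and 9.75 in CEACAM1-S and 9.79, 9.13, 9.18 and 9.12 in control cells. All CEACAM1-L arrays lay below all CEACAM1-S arrays, while control replicate 1 reached into the range of CEACAM1-S. Ctnnb1 was 1.53-fold higher in CEACAM1-S than in control (log2 difference 0.61 ± 0.15, limma adjusted p = 0.00335). CEACAM1-L differed from CEACAM1-S by -0.54 ± 0.15 (limma adjusted p = 0.0081) and from control by 0.07 (-0.24 to 0.38). Under scaling to a common median the differences were 0.59 and -0.66, but with an SE of 0.34 neither passed (limma adjusted p = 0.596 and 0.429). The call between the lines also ended when the 4 kept probes were averaged (-0.23, adjusted p = 0.142). The further Ctnnb1 probes differed from control in CEACAM1-S by 0.34, 0.30 and 0.11, and none of them passed.

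The rise of Ctnnb1 in CEACAM1-S came with a shift of the whole chromosome 9. Of its 508 tested genes, 240 (47.2%) were higher in CEACAM1-S than in control and 12 lower, where 12.2% of all tested genes were higher. The median log2 difference was 0.37 on chromosome 9 and -0.02 over the other genes, and between the lines 189 of 508 were lower in CEACAM1-L. Of the 6 tested genes nearest Ctnnb1, 3 were higher in CEACAM1-S: Slc25a38 by 0.62, Trak1 by 0.61 and Ss18l2 by 0.31. The part of this shift in the Ctnnb1 result was not tested.

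Around beta-catenin, 15 of 24 catenin, cadherin and destruction complex genes were tested, of which 2 were higher in CEACAM1-S, 3 in CEACAM1-L and none lower than control. These counts of higher genes lie near the shares over all tested genes, 12.2% in CEACAM1-S and 18.2% in CEACAM1-L. The median log2 difference was 0.15 in CEACAM1-S and 0.07 in CEACAM1-L. Bcl9l, a beta-catenin coactivator on chromosome 9, was higher in both by its brightest probe, by 0.45 ± 0.14 in CEACAM1-L and 0.62 ± 0.14 in CEACAM1-S (limma adjusted p = 0.0144 and 0.00204). With the mean of its kept probes the CEACAM1-L difference was 0.29 and did not pass (adjusted p = 0.173). Tcf7l1, which mostly represses Wnt target genes, was higher in CEACAM1-L by 0.79 ± 0.14 (limma adjusted p = 0.000116). Btrc, the ubiquitin ligase subunit that marks beta-catenin for destruction, was higher there by 0.40 ± 0.13 (limma adjusted p = 0.0202), a call lost without control replicate 3 or CEACAM1-L replicate 2 or 3.

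**Figure D4:**
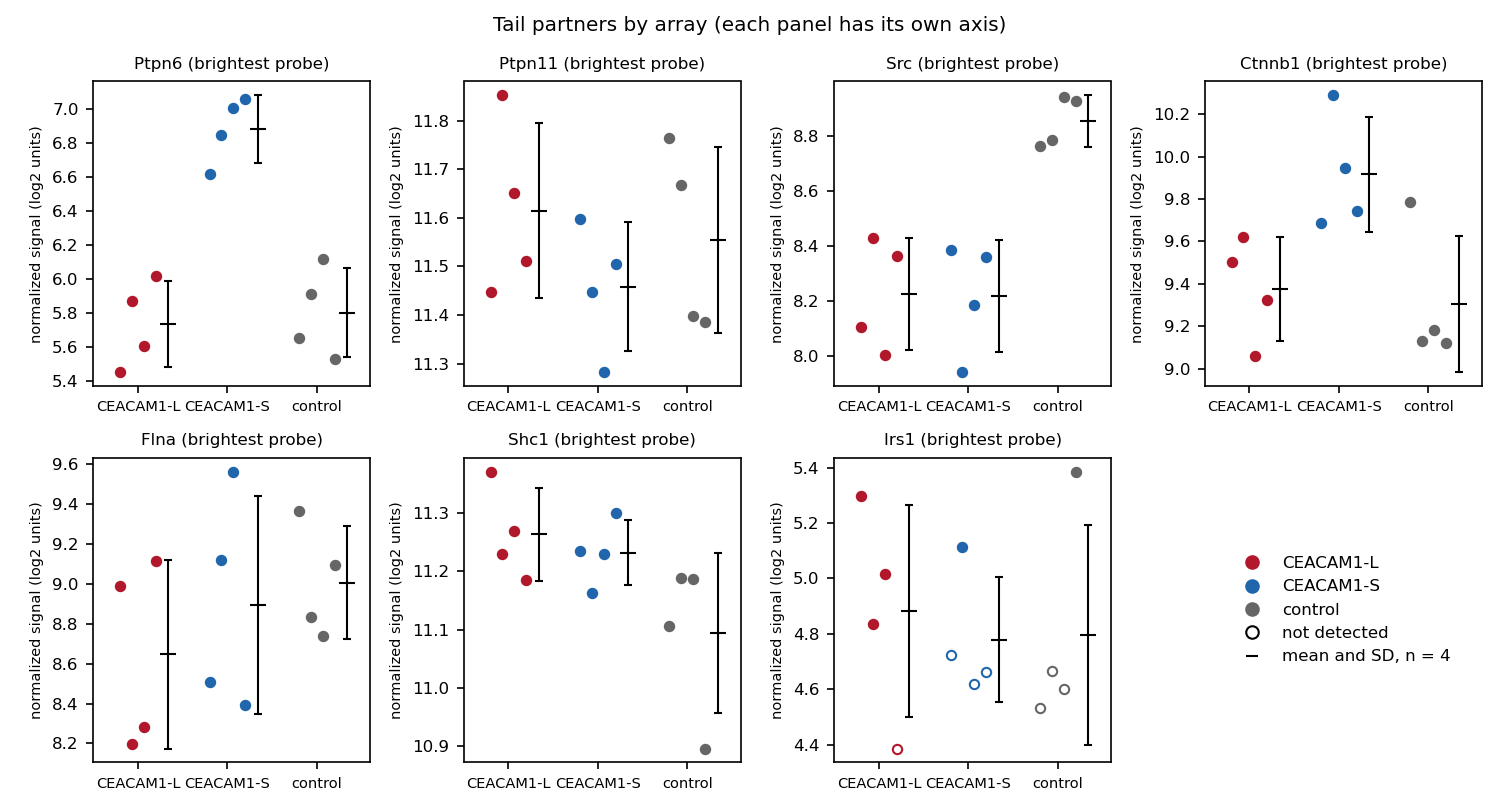
Normalized log2 signal (y axis, a scale for each panel) of the brightest probe of Ptpn6, Ptpn11, Src, Ctnnb1, Flna, Shc1 and Irs1 in CEACAM1-L, CEACAM1-S and control arrays, with open circles for arrays without detection and bars for the mean and SD of 4 arrays. Ptpn6 stands apart in CEACAM1-S, between 6.62 and 7.06, and Src in control, between 8.77 and 8.94. In both of these panels the other 2 groups overlap. In each remaining panel no group stands apart from both others.

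Flna encodes filamin A, an actin crosslinker that binds the long tail. It read 8.99, 8.20, 8.28 and 9.11 in CEACAM1-L, 8.51, 9.12, 9.56 and 8.39 in CEACAM1-S and 9.37, 8.83, 8.74 and 9.09 in control cells. The groups overlapped, with arrays of 1 group spread over more than a log2 unit in CEACAM1-S. The differences from control were -0.36 (-0.80 to 0.08) in CEACAM1-L and -0.11 (-0.55 to 0.33) in CEACAM1-S, with limma adjusted p of 0.202 and 0.763. With the 2 sets of arrays that separated within each group as a block, the CEACAM1-L difference passed (-0.36, limma adjusted p = 0.0143). It also passed within set A alone (-0.54, limma adjusted p = 0.00199), but not within set B. Those sets were drawn from these same values, so a block or a split by them tends to lower the SE by its construction. Neither pass is therefore independent support for a difference. The other Flna probe was detected on no array.

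Of 22 actin crosslinkers and filamin partners, 18 were tested, Flna included. In CEACAM1-L 3 were higher and 7 lower than control, with a median of -0.21, and in CEACAM1-S 2 were higher and 2 lower, with a median of -0.11. Arhgap24, the filamin-binding Rac inhibitor FilGAP, was higher in CEACAM1-L by 0.92 ± 0.16 and lower in CEACAM1-S, at -0.61 ± 0.16 (limma adjusted p = 8.57e-05 and 0.00747). Its CEACAM1-S arrays overlapped those of control. The isoform lines differed in Arhgap24 by 1.52 ± 0.16 (limma adjusted p = 1.78e-07), with all CEACAM1-L arrays above all CEACAM1-S arrays. Arhgap24 lies on chromosome 5, as Ptpn11 does, and the shift of that chromosome in CEACAM1-L is given there. The part of that shift in the Arhgap24 values was not tested. Itgb1, the integrin beta 1 chain, was lower in CEACAM1-L, at -0.71 ± 0.18 (limma adjusted p = 0.00289), but the mean of its kept probes gave -0.36 without passing (adjusted p = 0.167). Vcl, which encodes the focal adhesion protein vinculin, was higher in CEACAM1-S by 0.62 ± 0.18 (limma adjusted p = 0.0116), a call lost without CEACAM1-S replicate 2 (0.52, adjusted p = 0.0515).

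Shc1, an adaptor that passes receptor signals to Ras and is reported to bind the CEACAM1 tail, showed no difference past the threshold. It read 11.37, 11.23, 11.27 and 11.18 in CEACAM1-L, 11.23, 11.16, 11.23 and 11.30 in CEACAM1-S and 11.11, 11.19, 11.19 and 10.90 in control. The groups overlapped, and the differences from control were 0.17 (-0.01 to 0.35) in CEACAM1-L and 0.14 (-0.04 to 0.32) in CEACAM1-S, neither past the threshold (limma adjusted p = 0.136 and 0.285). The second kept probe of Shc1 did not pass either, and 2 further probes were below the filter.

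Irs1, the docking protein of the insulin receptor, was at the edge of detection, on 3 CEACAM1-L arrays, 1 CEACAM1-S array and 1 control array. It read 5.30, 4.83, 5.01 and 4.39 in CEACAM1-L, 4.72, 5.11, 4.62 and 4.66 in CEACAM1-S and 4.53, 4.67, 4.60 and 5.38 in control cells. The highest reading was control replicate 4, and the groups overlapped. The differences from control were 0.09 (-0.35 to 0.52) in CEACAM1-L and -0.02 (-0.45 to 0.42) in CEACAM1-S, neither past the threshold. At a signal this near the floor, the intervals do not bound the size of a real change.

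Of the 26 adaptors and effectors listed around Shc1 and Irs1, 18 were tested. In CEACAM1-L 2 were higher and 3 lower than control, and in CEACAM1-S none was higher and 2 were lower, with medians of -0.01 and -0.03. Sh2b2, which lies on chromosome 5 and encodes an adaptor of the insulin receptor, was lower in both lines. It differed by -0.83 ± 0.18 in CEACAM1-S (limma adjusted p = 0.00148) and -0.53 ± 0.18 in CEACAM1-L (adjusted p = 0.0266). The CEACAM1-L call was lost without control replicate 3 or 4 or CEACAM1-L replicate 1. Dok1, a docking protein that restrains Ras signalling, was lower in CEACAM1-S, at -0.61 ± 0.14 (limma adjusted p = 0.0017), and differed by 0.16 in CEACAM1-L. CEACAM1-L exceeded CEACAM1-S by 0.76 ± 0.14 (limma adjusted p = 0.000162). Sos2, an activator of Ras, differed by -0.63 ± 0.23 in CEACAM1-L (limma adjusted p = 0.0372), a call lost without control replicate 1 (-0.36) or CEACAM1-L replicate 1, 3 or 4. It was detected on 1 of 4 CEACAM1-L arrays, so the size of its difference depends on the background.

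Of 12 receptors whose signalling CEACAM1 is reported to dampen, 10 were tested, with 1 higher and 1 lower in CEACAM1-L and 2 higher and 1 lower in CEACAM1-S. Insr, the insulin receptor gene, was higher in both, by 0.59 ± 0.17 in CEACAM1-L and 0.66 ± 0.17 in CEACAM1-S (limma adjusted p = 0.0096 and 0.00644). Its CEACAM1-S arrays overlapped those of control. The CEACAM1-L call was lost without CEACAM1-L replicate 4 (0.44, adjusted p = 0.0526). Flt1, which lies on chromosome 5 and encodes a receptor of vascular endothelial growth factor, was undetected in CEACAM1-L. It was at least 2.25-fold lower there than in control (limma adjusted p = 7.8e-06). In CEACAM1-S, where it was detected on 2 of 4 arrays, it differed by -1.13 ± 0.20 (limma adjusted p = 0.000145), a size that depends on the background.

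Among 15 tested tyrosine phosphatases other than SHP-1 and SHP-2, 3 were higher and 3 lower than control in CEACAM1-L, and 1 was higher and 2 lower in CEACAM1-S. Ptpn22, which partners with Csk in lymphocytes, was lower in both lines, at -0.99 ± 0.18 in CEACAM1-L and -1.16 ± 0.18 in CEACAM1-S (limma adjusted p = 0.000146 and 3.83e-05). Ptprk, a receptor phosphatase of cell contacts, was also lower in both, at -1.02 ± 0.17 and -0.97 ± 0.17 in that order (adjusted p = 4.23e-05 and 0.000133). Ptpn18, undetected in control, exceeded it at least 2.16-fold in CEACAM1-L and 1.48-fold in CEACAM1-S (limma adjusted p = 1.58e-06 and 0.000849).

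Other receptors with SHP-recruiting motifs were mostly unmeasured, with 4 of 21 tested. In CEACAM1-L 1 was higher and 2 lower than control, and in CEACAM1-S 2 were lower. Tigit, a checkpoint receptor of T and natural killer cells, averaged 7.99 in CEACAM1-L, 6.99 in CEACAM1-S and 9.04 in control, differences of -1.05 ± 0.19 and -2.05 ± 0.19 (limma adjusted p = 9.25e-05 and 1.09e-08). Siglecg, a sialic acid receptor known from B cells, was lower, at -1.24 ± 0.14 in CEACAM1-L and -0.64 ± 0.14 in CEACAM1-S (limma adjusted p = 2.12e-07 and 0.00159). Milr1, an inhibitory receptor of mast cells, was higher in CEACAM1-L by 1.22 ± 0.18 (limma adjusted p = 7.37e-06). It was detected on 2 of 4 control arrays, so the size of its difference depends on the background. The immune markers are described beside Ptpn6, and their part in these differences was not tested.

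Of 22 other reported tail partners, 17 were tested, with 1 higher and 6 lower than control in CEACAM1-L (median -0.10) and 1 higher and 3 lower in CEACAM1-S (median 0.03). Camk2d, a subunit of the calmodulin-dependent kinase that phosphorylates the short tail in human cells, was lower, at -0.50 ± 0.13 in CEACAM1-L and -0.80 ± 0.13 in CEACAM1-S (limma adjusted p = 0.00298 and 3.52e-05). Flnc, a filamin best known from muscle, was lower, at -0.48 ± 0.11 and -0.59 ± 0.11 in that order (adjusted p = 0.000902 and 0.000189). Tpm1, a tropomyosin gene on chromosome 9, was higher in CEACAM1-S by 0.54 ± 0.08 (limma adjusted p = 1.98e-05) and differed by 0.06 in CEACAM1-L.

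RNA-binding proteins that set inclusion of the tail exon in human CEACAM1 were tested in 8 of 10 cases, with 4 lower in CEACAM1-L, 2 lower in CEACAM1-S and none higher. Srsf1, a splicing activator, was lower in CEACAM1-L, at -0.81 ± 0.09 (limma adjusted p = 1.71e-07) and differed by -0.07 in CEACAM1-S. Srsf2, of the same family, was lower, at -0.65 ± 0.08 in CEACAM1-L (limma adjusted p = 5.8e-07). In CEACAM1-S it differed by -0.22 ± 0.08 (adjusted p = 0.0469), a call that 9 of the 12 single left-out arrays ended. Hnrnpm, an exon repressor or enhancer depending on context, was lower, at -0.55 ± 0.10 in CEACAM1-L and -0.35 ± 0.10 in CEACAM1-S (limma adjusted p = 0.00014 and 0.0118).

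Of 13 factors reported to bind the CEACAM1 promoter, 8 were tested, with 1 higher in CEACAM1-L and 1 higher and 2 lower in CEACAM1-S. Sox9, a transcription factor of intestinal crypts, was lower in CEACAM1-S, at -0.67 ± 0.09 (limma adjusted p = 3.19e-06), and Hif1a, the hypoxia factor, at -0.63 ± 0.17 (adjusted p = 0.00598). Irf1, an interferon-induced factor, was higher there by 0.44 ± 0.10 (limma adjusted p = 0.00256). In CEACAM1-L minus control these 3 differed by -0.14, 0.00 and 0.20 without passing, but Irf1 passed there with the mean of its kept probes (0.32, adjusted p = 0.0112).

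The genes whose levels ran most like Ceacam1 over the 12 arrays were Col6a2 and Col6a1, chains of type VI collagen, with Pearson r of 0.985 each, followed by Selenos at 0.978, Islr at 0.977 and Slc39a4, a zinc transporter gene, at 0.976. Those running most opposite were Tnfrsf4 at -0.978, Arhgef3 at -0.975 and Bpifb4 at -0.975. These values describe 12 arrays that fall into 3 groups, and mostly restate the order of the group means. Col6a2, for example, averaged 8.17 in CEACAM1-L, 9.25 in CEACAM1-S and 6.93 in control, and Tnfrsf4 averaged 9.27, 8.59 and 10.21 in that order.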

How the data were processed

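Total RNA of 12 samples was measured on Illumina bead arrays, 1 array each. The non-normalized table deposited by the authors holds 1 signal intensity and 1 detection p-value per probe and array, per the file headers, and its lowest intensities of 68.6 to 81.4 show that no background had been subtracted. The authors' deposited series values, used as an alternative, are log2 values whose array medians lie between 7.06 and 7.08, not centred per probe; no source used here gives their normalization. In the submitters' processing notes lumi 2.6.0 is the tool named. Every value column was matched to a sample by its header, and 0 were left unmapped.

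Gene symbols came from the platform annotation: 34885 of 45281 had 1 symbol, 18 several and 10378 none. In limma 3.58.1 (R 4.3.3), neqc corrected the background from the detection p-values (normexp, offset 16), quantile normalized and took log2. Probes with a detection p under 0.05 on at least 4 arrays were kept (16330), and the kept probe of highest mean stood for its gene, giving 9100 genes. Group means were fitted in 1 model over the 12 arrays (lmFit, then eBayes with trend, on 9 residual and 15.5 prior degrees of freedom). Two-sided p-values were adjusted by Benjamini-Hochberg over all genes, or over all kept probes for a member's further probes. Errors of means are SDs, errors of differences SEs, and intervals are 95% intervals of the fit. The fitting code was tested on simulated data. The number of arrays limits the precision.

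The members, the 15 gene lists and the rule for named genes were chosen with earlier results of these data known. The rule took from each list that is not of markers up to 3 genes past the threshold in either isoform line whose 4 arrays all lay above or below the control arrays, largest difference first. Likeness took the 5 highest and 3 lowest correlations. Same-numbered arrays of different groups did not deviate together (r between -0.198 and 0.187, 1 of 12 pairs over 0.1), so numbers were not taken as pairs. Arrays did separate within groups into 2 sets, A (control 2 and 3, CEACAM1-S 1 and 4, CEACAM1-L 2 and 3) and B (the others), by a component holding 22.1% of the within-group variance; the labels name no batch. The sets were drawn from the values themselves, so using them as a block tends to lower the residual spread by construction. Calls kept or gained with that block are no independent support. Alternatives are given at the end.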

Additional observations from a re-analysis of the deposited data

Results flagged for a closer look

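Among 24 sets of 4 arrays examined (8 tested members in 3 groups), 2 had an array far from the rest of its group; chance alone flags about 1 set in 20. For Ctnnb1, control replicate 1 read 9.79 where the next highest control array read 9.18. For Irs1, control replicate 4 read 5.38 where the next read 4.67, and Irs1 lay at the edge of detection. Without control replicate 1, the Ctnnb1 difference of CEACAM1-S minus control was 0.77, and with all arrays it was 0.61.

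The isoform lines differed from each other in 3 members by the test of the difference itself, CEACAM1-L minus CEACAM1-S in the fit over all genes. The log2 difference was -1.78 for Ceacam1, -0.54 for Ctnnb1 and -1.14 for Ptpn6.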

How the results depend on the processing

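Of the 9 calls on members, all 9 were kept without background correction, in the authors' processed values, with either other detection filter, without the mean-variance trend, with only the 2 groups compared, with the set of arrays as a block, within set A, within set B and without any 1 array. With the replicate block all 9 were kept too: Ceacam1 differed by 3.40 in CEACAM1-S minus control (limma adjusted p = 5.55e-12), and counts of genes moved by less than 1.5 times. Scaling arrays to a common median kept 5 and lost 4, leaving 2 members called in CEACAM1-S minus control and 1 in CEACAM1-L minus control. It called 276 genes and 387 probes in CEACAM1-S minus control, 644 genes and 1084 probes in CEACAM1-L minus control, and 295 genes and 438 probes in CEACAM1-L minus CEACAM1-S, against 2148, 3290 and 2382 genes in the main setting. Of the genes called in CEACAM1-L minus control 39.0% were then higher, against 50.2% in the main setting, and of those in CEACAM1-L minus CEACAM1-S 42.0%, against 50.5%; the median of all genes moved to -0.11 in CEACAM1-L minus control. The median SE of the 42 calls on list genes lost this way was 0.34, against 0.14 in the main setting, with 41 of the 42 differences within 1.5 times their size. The cause of the lower counts was not tested further. Within set B, with 2 arrays a group, counts fell to 893 genes and 1185 probes, 1678 and 2448, and 677 and 852 in the same order. The mean of a gene's kept probes kept 6 of the 9 calls on members. Of the 57 calls on genes named from the lists, 42 were lost under scaling to a common median, 25 within set B, 7 within set A, 6 with no detection filter, 4 without the mean-variance trend, 2 when kept probes were averaged (which also turned 1), 1 each with the replicate block, with only the 2 groups compared and in the authors' values, none without background correction or with the set of arrays as a block, and 2 to 4 without any 1 array. With detection required on all 12 arrays 47 of the 57 were tested and kept.

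Signs turned 62 times over 22 differences, once for a difference past the threshold in the main setting and never for one past it under the alternative. That one was Srsf2 in CEACAM1-S minus control, at 0.042 with the mean of its probes (limma adjusted p = 0.763). The same setting gave Ptpn11 0.058 in CEACAM1-S minus control, gained it a call in CEACAM1-L minus control (0.25, limma adjusted p = 0.0299) and gave Src -0.11 between the lines. Scaling to a common median gave, in CEACAM1-L minus control, Csk -0.11, Ctnnb1 -0.066, Psg23 -0.10, Ptpn11 -0.078 and Tpm1 -0.054, between the lines Flnc -0.048, Shc1 -0.11 and Src -0.10, and Irs1 0.077 in CEACAM1-S minus control. Within set A, CEACAM1-L minus control gave Csk -0.14, Hif1a 0.081 and Vcl -0.12, CEACAM1-S minus control gave Irs1 0.058 and Ptpn11 0.019, and the lines differed by -0.018 in Shc1 and -0.16 in Src. Within set B, CEACAM1-L minus control gave Ctnnb1 -0.043, Irs1 -0.12, Psg23 -0.23, Ptpn11 -0.10 and Ptpn6 0.14, CEACAM1-S minus control gave Flna 0.11, and the lines differed by 0.0020 in Hnrnpm and -0.024 in Irs1.

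Leaving out each array in turn, CEACAM1-S minus control ranged from -0.17 to 0.0063 for Btrc, -0.33 to 0.057 for Flna and -0.13 to 0.18 for Irs1. CEACAM1-L minus control ranged from -0.044 to 0.10 for Csk, -0.011 to 0.23 for Ctnnb1, -0.070 to 0.11 for Hif1a, -0.052 to 0.28 for Irs1, -0.13 to 0.089 for Psg23, -0.018 to 0.13 for Ptpn11 and -0.16 to 0.039 for Ptpn6. Between the lines the range was -0.23 to 0.035 for Insr, -0.034 to 0.27 for Irs1, -0.15 to 0.042 for Ptprk, -0.0041 to 0.058 for Shc1, -0.32 to 0.015 for Sos2 and -0.084 to 0.082 for Src. Probes under the detection floor, 9 of the 26 of these genes, bear on no difference.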
